A study of Mus musculus with 21 samples.

Results

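The stretch of mouse chromosome 9 around Yap1, Birc2 and Birc3 was examined for copy number in 21 liver tumours of mice with NASH, the steatohepatitis caused by a choline-deficient high-fat diet. The stretch was fixed by position as chr9:5000000-11000000 (mm9), called the locus here, and all array probes placed in it were taken, whatever their values. It held 203 of the 96471 probes of both array designs, and 14 of these were named for a member gene in the files. The locus was set against the other 4971 probes of chromosome 9. Tumours came from C57BL/6 mice that had received CD-HFD for 12 months. In the anti-PD1 group, 12 tumours of 7 mice had in addition been exposed to an antibody against PD1 for 8 weeks, and the CD-HFD group held 9 tumours of 7 mice on the diet alone. The leading number of a tumour's label was read as its mouse, and 3 anti-PD1-treated and 2 CD-HFD mice gave more than 1 tumour. DNA was extracted from fixed, paraffin-embedded lesions and hybridized together with DNA of a reference pool that the labels describe as liver tails. The share of tumour cells in each lesion was not given, and a lesion mixed with normal cells shows a smaller ratio than its tumour cells alone would.

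Yap1 encodes the transcriptional co-activator at the end of the Hippo pathway. The kinases of that pathway phosphorylate it and keep it out of the nucleus, and when they are inactive it binds TEAD factors and drives genes of growth and survival. Birc2 and Birc3 encode cIAP1 and cIAP2, ubiquitin ligases of the inhibitor of apoptosis family, which sit in the TNF receptor complex, restrain caspase-8 and steer NF-κB signalling. The 3 genes are neighbours, and amplification of the matching human and mouse regions is a known event in several carcinomas, liver cancer among them. The locus also holds a cluster of inflammatory caspases and a cluster of matrix metalloproteinases.

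All 203 probes of the locus matched the GRCm38 genome at 1 place, at the same positions as in mm9, so the GENCODE annotation of GRCm38 could be laid over them. In that annotation Birc2 lies at chr9:7818227-7837064, Birc3 at chr9:7848699-7873186 and Yap1 at chr9:7931999-8004596, all on the minus strand. The 5 probes below are shown as examples from the member genes, and the other 11 probes inside these genes are not printed. They are 60 bases long and lie in coding exons or introns, and all but the Birc3 probe were present on every array. The numbers count the probes of each gene in chromosome order, and no letters are in capitals because each probe acts as a whole.
Birc2 probe 3 (coding exon, chr9:7836802-7836861, mm9, plus strand): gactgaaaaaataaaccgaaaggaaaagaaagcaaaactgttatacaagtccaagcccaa
Birc3 probe 1 (coding exon, chr9:7851131-7851190, mm9, plus strand): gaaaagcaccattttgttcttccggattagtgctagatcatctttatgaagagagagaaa
Yap1 probe 3 (intron, chr9:7953833-7953892, mm9, plus strand): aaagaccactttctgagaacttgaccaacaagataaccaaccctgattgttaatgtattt
Yap1 probe 6 (intron, chr9:7975426-7975485, mm9, plus strand): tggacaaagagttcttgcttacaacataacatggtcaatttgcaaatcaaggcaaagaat
Yap1 probe 9 (intron, chr9:7995336-7995395, mm9, plus strand): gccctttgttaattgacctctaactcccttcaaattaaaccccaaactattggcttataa

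The 21 arrays lay on 3 slides. Slide 1 carried array design 1 with 8 tumours, 4 of each group, and slides 2 and 3 carried array design 2 with 13 tumours. Design 1 had 110 probes in the locus and design 2 had 118, of which 25 were on both. Every value below is the log2 ratio of tumour over reference, centred on the median of its array, so a value of 0 stands for the centre of an array, whatever its true number of copies. The noise of single probes was 0.41 to 0.68 on this scale, which left a standard error of 0.038 to 0.063 for the mean of the locus in 1 tumour. Lesion 1 of mouse 608 was the dimmest array, with 65.0% of its tumour spots well above background against a median of 96.5%.

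The locus stood slightly above the rest of chromosome 9 in 20 of 21 tumours, and the groups overlapped. In the 12 anti-PD1 tumours the mean of the locus was -0.42 at the lowest, 0.16 at the median and 0.26 at the highest. In the 9 CD-HFD tumours it was 0.017, 0.087 and 0.21. Values of both groups overlapped, and the lowest ones were lesions 1 and 6 of mouse 608, at -0.42 and -0.28. The rest of chromosome 9 was low in the same lesions, at -0.38 in both, whereas in the other 19 tumours it lay between -0.11 and 0.071. The mean of the locus minus that of the rest of the chromosome was therefore -0.040 in lesion 1 and 0.10 in lesion 6 of this mouse. Over all tumours this difference ran from -0.040 through a median of 0.15 to 0.27, and it was above 0 in 20 of 21.

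**Figure D1:**
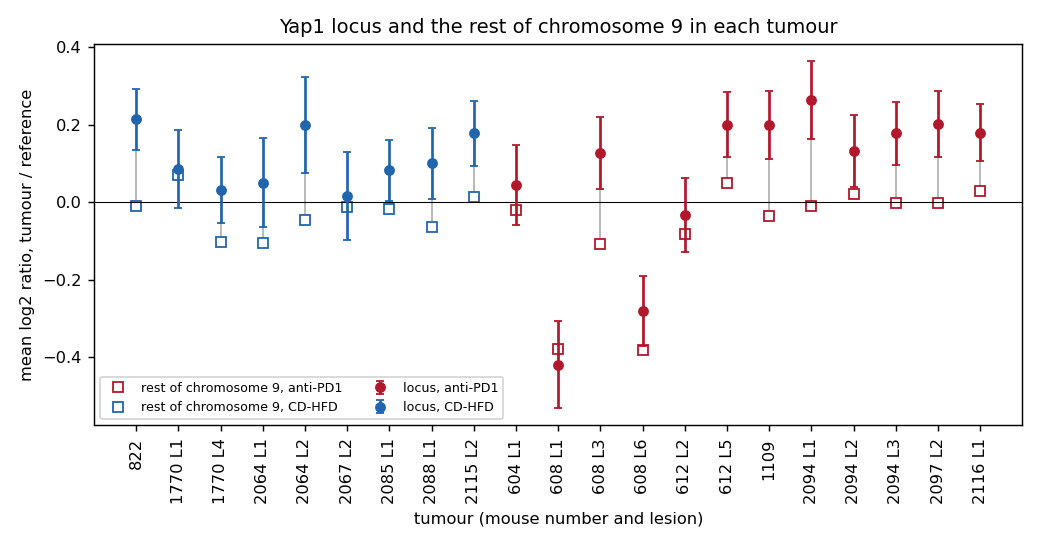
Mean log2 ratio (tumour over reference) of the locus as filled points, with 95% intervals from the noise of the array, and of the rest of chromosome 9 as open squares, for each tumour by mouse number and lesion. The points lie above the squares in 20 of 21 tumours, and lesions 1 and 6 of mouse 608 are low in both.

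Averaged per mouse, the locus minus the rest of chromosome 9 was 0.15 ± 0.064 in the anti-PD1 group and 0.14 ± 0.070 in the CD-HFD group (SD, n = 7 mice each). The groups differed by 0.012 with a standard error of 0.036 (two-sided exact permutation test over 3432 splits of the mice, p = 0.728), and 4 of 7 treated mice exceeded the mean of the CD-HFD mice. The count has no term for array design. The 4 were mice 2094, 2097, 2116 and 1109, the treated mice with no tumour on design 1. Over all mice the mean was 0.14 ± 0.065 (SD, n = 14), above 0 in 14 of 14 mice (two-sided exact sign-flip permutation test, p = 0.000122, the smallest that 16384 sign patterns allow). A value off 0 was not particular to this locus. Chromosomes 1 to 19 and X were cut into 414 blocks of 6 Mb, the locus being 1 of them, and each was set against the rest of its own chromosome. By limma with an adjusted p under 0.05, 84.1% of these blocks differed from 0, and 51.4% were higher. The locus passed there as well, at 0.14 with a standard error of 0.017 (limma, adjusted p = 7.89e-08), and was number 60 of 414 when blocks were ordered by this fitted mean. Between the groups 0 of 414 blocks passed in limma, a background of 0%, with 1 block at an unadjusted p under 0.05. For the locus the fitted group difference was 0.0053, with a 95% interval from -0.061 to 0.071 (limma, adjusted p = 0.997).

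Base composition moved with this result. The 50 kb around a probe held 39.98% G and C on average in the locus, against 43.8% in the rest of chromosome 9. After each array had been corrected for base composition (GC content of the probe, and GC content of 50 kb centred on it), the mean over mice fell from 0.14 to 0.026 ± 0.043 (SD, n = 14; exact sign-flip permutation test, p = 0.0424). The corrected value was above 0 in 10 of 14 mice and in 13 of 21 tumours. On array design 1 it was above 0 in 1 of 8 tumours, with a median of -0.021 and a range from -0.056 to 0.014, and on design 2 in 12 of 13, with a median of 0.070 and a range from -0.013 to 0.10. It was 0.023 ± 0.042 in the anti-PD1 group and 0.028 ± 0.046 in the CD-HFD group (SD, n = 7 mice each). In the same correction 64.3% of all blocks still differed from 0 and 31.6% were higher, and the locus stood at number 106 of 414, at 0.027 with a standard error of 0.011 (limma, adjusted p = 0.0372). The p over mice rose to between 0.0510 and 0.0842 when any of 8 mice (2094, 2097, 2116, 2064, 2088, 2115, 1109 and 822) was left out of the corrected values. These are the 8 mice with no tumour on design 1.

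**Figure D2:**
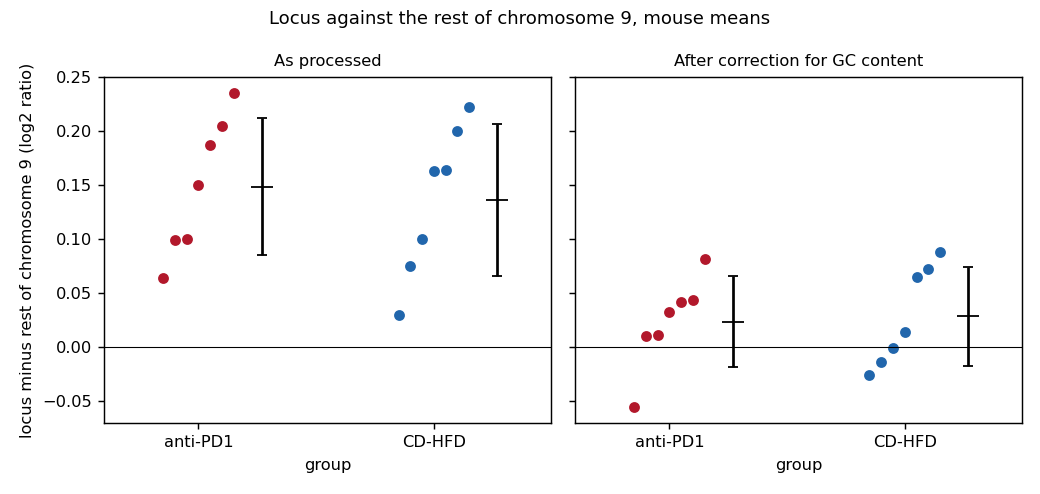
Locus minus the rest of chromosome 9 (log2 ratio) for each mouse as a point, with the mean and SD of 7 mice per group, as processed on the left and after the GC correction on the right. All 14 mice lie above 0 on the left, and 10 of 14 on the right.

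The array design moved with the size of the difference as well. On design 1 the locus minus the rest of the chromosome was -0.040 to 0.13 in 8 tumours, and on design 2 it was 0.11 to 0.27 in 13 tumours. With the 25 probes that both designs shared, the ranges were 0.16 to 0.27 and 0.13 to 0.27, so that the gap between designs was not seen on identical probes. The group difference on these probes was 0.032 (exact permutation test, p = 0.0664). Within slide 1, with 3 mice of each group, the anti-PD1 mean was 0.048 and the CD-HFD mean 0.068, a difference of -0.021 (exact permutation test, p = 0.5). Within slide 2 the means of 3 mice each were 0.19 and 0.18, a difference of 0.018 (exact permutation test, p = 0.6). The smallest p that 3 against 3 mice allow is 0.1. Slide 3 held 1 CD-HFD mouse, at 0.22, beside 4 anti-PD1-treated mice with a mean of 0.18. On slide 1 alone limma called 50.7% of blocks between the groups and the locus with them, at -0.042 with a standard error of 0.011 (adjusted p = 0.0130). That fit rested on a correlation of -0.94 between tumours of 1 mouse, estimated from 2 mice with several tumours on the slide.

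Along the locus no window stood apart between the groups. Of 2223 windows of 1 Mb in the genome, 0 passed in limma (0%), with 20 at an unadjusted p under 0.05. The locus had 5 windows with at least 5 probes on every array. Their fitted differences, anti-PD1 minus CD-HFD, ran from -0.098 to 0.027, each with an adjusted p of 0.999 (limma). The mean over mice was highest in the first window, chr9:5000001-6000000, at 0.20, where the caspase cluster lies. It was lowest in the third, chr9:7000001-8000000, at 0.074, which holds the metalloproteinase cluster, Birc2, Birc3 and nearly all of Yap1. The windows between and beyond had means of 0.11 to 0.12. The first window had the lowest GC content (37.8%) and the third the highest (40.9%), and after the GC correction the 5 means lay between -0.021 and 0.014.

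**Figure D3:**
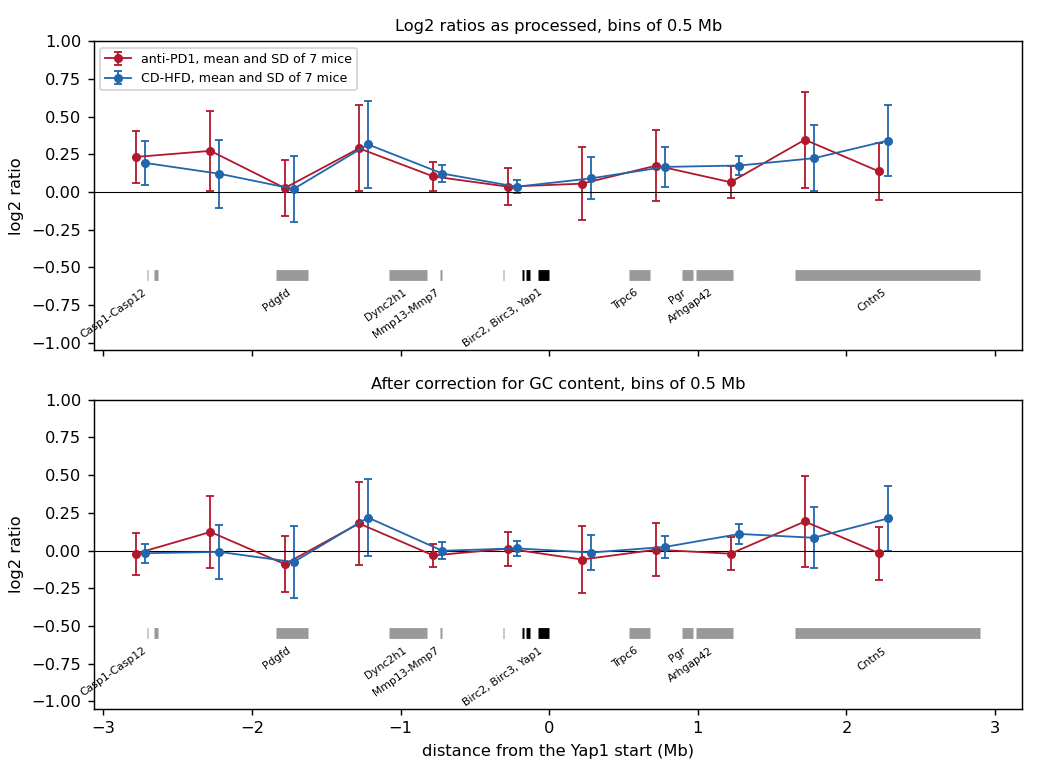
Log2 ratio in bins of 0.5 Mb against the distance from the start of Yap1 in Mb, as the mean and SD of 7 mice per group, before (top) and after (bottom) the GC correction. Grey and black bars mark genes, and the bins over Birc2, Birc3 and Yap1 show no peak in either group.

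A narrow amplification of the member genes would raise the probes between Birc2 and Yap1 over their surroundings. This interval of 186 kb held 13 probes on design 1 and 15 on design 2. Its mean minus that of the rest of the locus was -0.32 at the lowest, -0.16 at the median and 0.19 at the highest of 21 tumours, and 18 tumours were below 0. The 95% interval from the noise of the array, for values without the GC correction, lay above 0 in 0 tumours, held 0 in 15 and lay below 0 in 6. Its upper bound ran from -0.054 to 0.54. In all 21 tumours it stayed under 0.58, the value of 3 copies against 2 if every cell carried the third copy. Such intervals cover the scatter of probes only, and a gain in a part of the cells could lie inside them. In lesion 1 of mouse 608, with the highest bound of 0.54, that part could be large. Per mouse the interval minus the rest of the locus was -0.17 ± 0.088 in the anti-PD1 group and -0.13 ± 0.12 in the CD-HFD group (SD, n = 7 mice each). After the GC correction it was -0.027 ± 0.045 and -0.016 ± 0.089, and 13 of 21 tumours were below 0. Over tumours the corrected value ran from -0.16 through a median of -0.036 to 0.18. In the 6 tumours with an interval below 0 it was -0.13 to -0.056, where the standard error before the correction was 0.12 to 0.15. No intervals were computed for corrected values, so their counts and bounds describe the uncorrected ones alone.

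**Figure D4:**
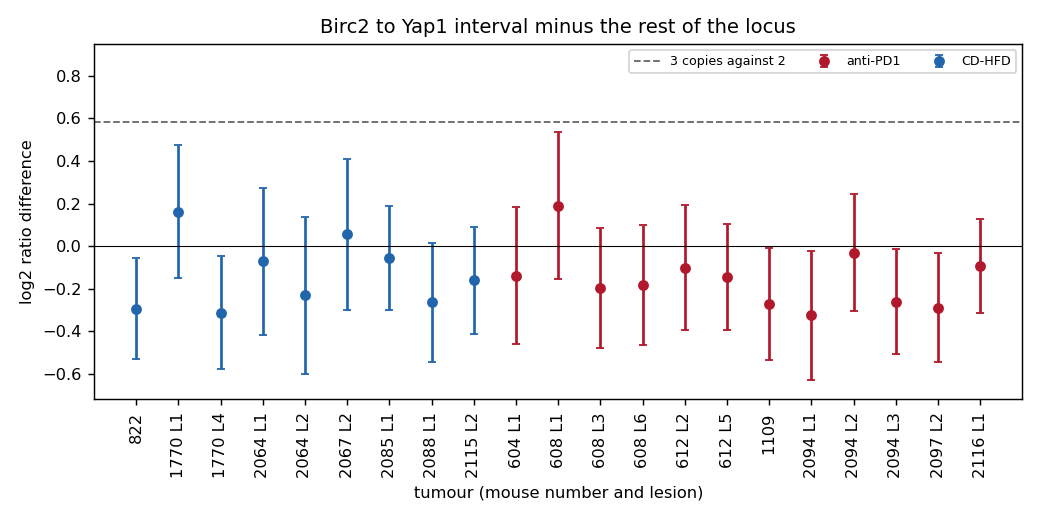
Mean log2 ratio of the probes from Birc2 to Yap1 minus the mean of the other probes of the locus, for each tumour by mouse number and lesion, with 95% intervals from the noise of the array. Values are shown without the GC correction. The dashed line marks 3 copies against 2, and all 21 intervals end below it.

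Dividing chromosome 9 of each tumour into segments put the locus in 1 segment in all 21 tumours, with 0 boundaries inside it. The locus counted as gained in 2 tumours, lesion 1 of anti-PD1-treated mouse 2094, with a segment mean of 0.23, and the tumour of CD-HFD mouse 822, with 0.21. The threshold was 0.2, and over all tumours 12.4% of 1-Mb windows were called as gained, so 2 of 21 is not above the background. In both tumours the segment ran from the first probe of chromosome 9 to chr9:20516306, about 17.4 Mb, so the gained stretch was wider than the locus. This segment was not particular to them. It had the same end in 2094 lesion 3, 2064 lesion 2, 608 lesion 3 and mouse 1109, with means of 0.083 to 0.19, under the threshold. In mouse 2097 and 1770 lesion 4 it ended at chr9:20392381 and chr9:20341356, with means of 0.19 and 0.053. The other lesions of mouse 2094 had segment means of 0.026 and 0.19. The locus counted as lost in 2 tumours, lesions 1 and 6 of mouse 608, with segment means of -0.38 in both, where 9.17% of windows were called as lost. Here the segment was the whole of chromosome 9, so the member genes shared the level of their chromosome. Lesion 3 of the same mouse, on slide 3, had a segment mean of 0.083, but that segment ended at chr9:20516306. Its chromosome 9 outside the locus was at -0.11. After the GC correction chromosome 9 was a single segment in every tumour, with 0 gains and the same 2 losses of the locus, against 4.89% and 3.17% of windows.

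Yap1 had 9 named probes on design 1 and 5 on design 2. The mean of these probes in the 12 anti-PD1 tumours was -0.47 at the lowest, -0.17 at the median and 0.0013 at the highest. In the 9 CD-HFD tumours it was -0.30, -0.13 and 0.26. The groups overlapped, with 1 anti-PD1 and 3 CD-HFD tumours above 0. The highest value was lesion 1 of mouse 1770 and the lowest was lesion 6 of mouse 608. The probe noise gave each of these means a standard error of 0.14 to 0.30. The fitted difference, anti-PD1 minus CD-HFD, was -0.099 with a standard error of 0.073 (limma with array design as a term and mouse as a block, adjusted p = 0.789). It was -0.026 without mouse 608 (adjusted p = 0.924). Of 7 treated mice 1 exceeded the mean of the CD-HFD mice. Over the whole genome 0 of 12114 genes passed between the groups (0%), and 857 had an unadjusted p under 0.05.

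Single probes of Yap1 sat at different levels, and the medians of the 10 probes inside the gene ran from -0.63 to 0.57. Yap1 probe 6, an intron probe, was above 0 in 20 of 21 tumours, with a median of 0.44 and a range from -0.22 to 1.21. Yap1 probe 9, in another intron, was below 0 in 20 of 21, with a median of -0.36 and a range from -1.08 to 0.22. Yap1 probe 3 lay between them at a median of -0.13. Yap1 probe 1, in the untranslated part of the gene, was below 0 in all 21 tumours, from -1.10 to -0.16. A single probe therefore gave no copy number on its own, and each is read only against itself across tumours. Probe 9 had a mean over mice of -0.55 ± 0.28 in the anti-PD1 group and -0.27 ± 0.11 in the CD-HFD group (SD, n = 7 mice each). Probe 6 had 0.34 ± 0.28 and 0.40 ± 0.30, and probe 1 had -0.49 ± 0.23 and -0.64 ± 0.24. The anti-PD1 mean was below the CD-HFD mean at 8 of the 10 Yap1 probes, among them all 5 that design 1 alone carried, and single probes were not tested. No share over all probes is given beside this count. The 4 anti-PD1 tumours on design 1 include lesions 1 and 6 of mouse 608, where the rest of chromosome 9 was at -0.38 as well. At Yap1 probe 2, an intron probe of design 1, the groups did not overlap, with -0.45 to -0.22 in 4 anti-PD1 and -0.022 to 0.25 in 4 CD-HFD tumours. It was the only 1 of 16 member probes without overlap, and 1 of the 6 that design 1 alone carried, where 2.35% of all such probes had groups that did not overlap and 1.3% had all anti-PD1 tumours below all CD-HFD tumours. These shares cover all chromosomes, whereas the whole of chromosome 9 was called as lost in lesions 1 and 6 of mouse 608.

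Birc3 had 1 named probe on design 1 and 3 on design 2, so the means of the designs rest on different probes. On design 1, where the mean is that of Birc3 probe 2 in the untranslated part, the 4 anti-PD1 tumours ran from -1.13 to -0.62 and the 4 CD-HFD tumours from -0.69 to -0.069. On design 2 the means of 3 probes ran from -0.25 to 0.022 in 8 anti-PD1 tumours and from -0.45 to 0.078 in 5 CD-HFD tumours. The groups overlapped on both designs. Birc3 probe 2 was on every array and was below 0 in all 21 tumours, with a range from -1.13 to -0.069 on design 1 and from -0.85 to -0.35 on design 2. Birc3 probe 1, in a coding exon, ran from -0.24 to 0.49 in the 13 tumours of design 2, and was below 0 in 6 of them. The fitted difference of Birc3 was -0.16 with a standard error of 0.099 (limma, adjusted p = 0.748). It was -0.030 without mouse 608 (adjusted p = 0.930), and 4 of 7 treated mice exceeded the mean of the CD-HFD mice. That count has no term for array design, and the median over tumours was -0.65 on design 1 and -0.10 on design 2. The 4 were mice 2094, 2097, 2116 and 1109, the treated mice with tumours on design 2 alone.

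Birc2 had a single named probe, in an intron and on design 1 alone. Its ratio in the anti-PD1 tumours was -0.64 in lesion 1 of mouse 604, -1.39 in lesion 1 and -1.06 in lesion 6 of mouse 608, and -0.71 in lesion 2 of mouse 612. In the CD-HFD tumours it was -0.997 in lesion 1 and -0.71 in lesion 4 of mouse 1770, -1.13 in mouse 2067 and -0.86 in mouse 2085. All 8 tumours were low and the groups overlapped. By position 2 more probes lay inside Birc2, though the files named them for transcripts. Birc2 probe 3, in a coding exon, was above 0 in 20 of 21 tumours, with a median of 0.39, and Birc2 probe 2, in an exon, was below 0 in 12 of 13 tumours, with a median of -0.29. Neighbouring probes of 1 gene thus lay on opposite sides of 0 in most tumours. With all probes inside the gene, the difference of Birc2 was 0.057 with a standard error of 0.085 (limma, adjusted p = 0.914), and 5 of 7 treated mice exceeded the mean of the CD-HFD mice. That count has no term for array design, while design 1 averages probes 1 and 3 and design 2 averages probes 2 and 3. The median of this average over tumours was -0.24 on design 1 and 0.075 on design 2. Mice 1770, 2067 and 2085 of the CD-HFD group and treated mouse 604 had tumours on design 1 alone.

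**Figure D5:**
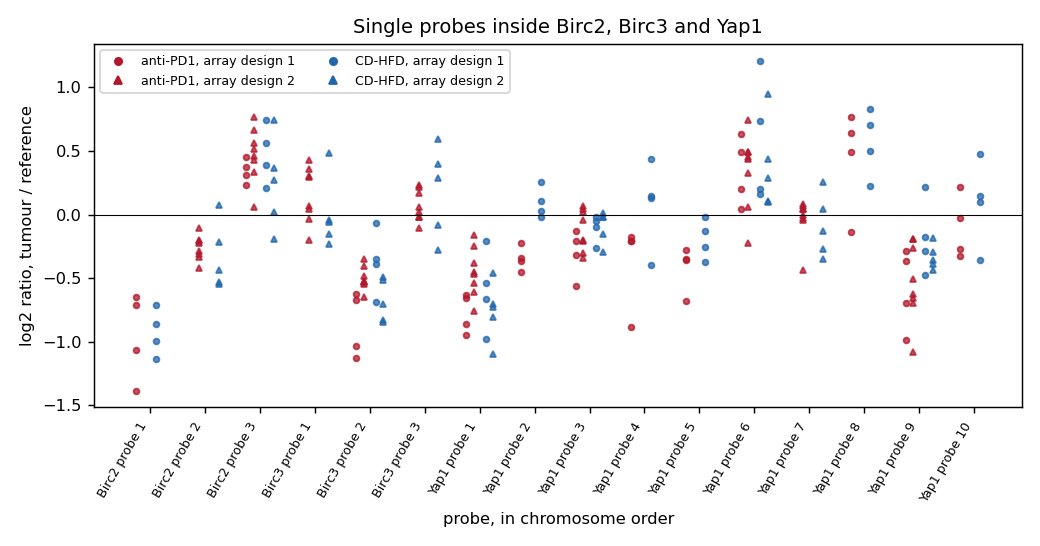
Log2 ratio (tumour over reference) of each probe inside Birc2, Birc3 and Yap1 in chromosome order, a point per tumour, coloured by group and shaped by array design. Birc2 probe 1, Birc3 probe 2 and Yap1 probe 1 lie below 0 in all tumours that carry them, Birc2 probe 3 and Yap1 probe 6 above 0 in 20 of 21, and the groups overlap at all probes but Yap1 probe 2.

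The other genes of the locus gave no call between the groups. Probes of the locus named 36 genes or transcripts, of which 18 had a probe on every array, and 0 of these 18 passed in limma while 2 had an unadjusted p under 0.05. Both of these were named after their values were seen. Arhgap42 had a difference of -0.20 with a standard error of 0.067 (limma, adjusted p = 0.595), and 0 of 7 treated mice exceeded the mean of the CD-HFD mice. Cntn5, a neural cell adhesion molecule, had -0.18 with a standard error of 0.079 (adjusted p = 0.693). The differences of the 18 ran from -0.20 to 0.15 with a median of -0.065, against a median of -0.0054 over all 12114 genes. Gene values were not set against the rest of chromosome 9, which was at -0.38 in lesions 1 and 6 of mouse 608. Of the 18, Yap1 was at -0.026 and Birc3 at -0.030 without this mouse.

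The inflammatory caspases Casp1, Casp4 and Casp12, proteases of the inflammasome family, all had probes on every array, and 0 of 3 passed in limma, with differences of -0.15 to 0.11. Of 10 matrix metalloproteinases listed for the locus, 5 had probes on every array and 0 passed, with differences of -0.11 to 0.15. The mean over mice was highest for Casp4, at 0.66 with mice from 0.12 to 1.46, for the transcript that holds Birc2 probe 3, at 0.42, and for Mmp12, the macrophage elastase, at 0.36. It was lowest for Birc3 at -0.30, Casp12 at -0.14 and Yap1 at -0.12. These means are levels of the probes named for each gene, not numbers of copies.

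Genes of the same pathways gave no call between the groups. Of 26 Hippo pathway genes listed, 19 were measured on every array and 0 passed in limma, with 7 higher and 12 lower and a median difference of -0.022, against 5794 higher and 6320 lower of all genes. Yap1 is 1 of the 19, and without it 7 were higher and 11 lower. The genes with the largest differences were Amotl2, an angiomotin that binds Yap1, at -0.44 with a standard error of 0.17 (adjusted p = 0.679), Vgll4, which competes with Yap1 for TEAD factors, at -0.19 (adjusted p = 0.723), and Lats2, a kinase that phosphorylates Yap1, at -0.18 (adjusted p = 0.760). Amotl2 lies on chromosome 9 outside the locus, and 1 of 7 treated mice exceeded the mean of the CD-HFD mice. Its difference was -0.22 without mouse 1770, -0.25 without mouse 608 and -0.047 with normexp background correction. Of 32 genes listed for inhibitors of apoptosis, TNF receptor and NF-κB signalling, 23 were measured and 0 passed, with 9 higher and 14 lower and a median of -0.031. Birc3 is 1 of the 23, and without it 9 were higher and 13 lower. The largest differences there were Nfkb2, which encodes an NF-κB precursor, at -0.33 (adjusted p = 0.707), Traf2, the adaptor that brings cIAP1 and cIAP2 to the TNF receptor, at 0.26 (adjusted p = 0.693), and Casp8, the initiator caspase of death receptors, at -0.18 (adjusted p = 0.707). Without mouse 2064 the difference was -0.17 for Nfkb2, -0.070 for Casp8, -0.072 for Vgll4 and 0.042 for Lats2, and with normexp it was -0.067 for Nfkb2, -0.12 for Casp8 and -0.037 for Vgll4. On the array with the fewest probes, Amotl2, Nfkb2 and Traf2 had 1 each, Vgll4 had 2, and Lats2 and Casp8 had 3.

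Outside chromosome 9, the genes whose level followed the locus most closely were Kcnip4, Sema3e, Zfp804b and Cacna2d1 on chromosome 5 and Mbnl1 on chromosome 3. Their Pearson correlation with the locus minus the rest of chromosome 9 was 0.81 to 0.84 over 21 tumours, both centred within each array design, among 1728 genes with at least 3 probes on every array. The points share arrays, mice and the base composition of the probes, and the correlation is given as a description.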

How the data were processed

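The members and gene lists were chosen with earlier results of these data known. For each array the authors deposited Feature Extraction 11.0.1.1 output: processed intensity signals of both channels, background-subtracted and dye-normalized by linear scaling, and a log10 ratio of reference (Cy5) over tumour (Cy3), which equalled the ratio of these signals within 0.001 in 99.4 to 100.0% of spots. The authors also deposited loess-normalized log2 ratios of 11526 probes, used as an alternative. The study's text gives no method for this assay. Positions are mm9. Control and outlier-flagged spots (88 to 228 per array) were left out.

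Log2 ratios (tumour over reference) were centred on each array's median, without loess. Mouse means (n = 7 a group) were compared by exact permutation. Windows (at least 5 probes), blocks (at least 30) and genes were fitted over the whole table with limma 3.58.1 in R 4.3.3 (mouse as random block, Benjamini-Hochberg adjustment, threshold 0.05). Segments came from optimal partitioning in Python 3.11.15 (penalty factor 3, at least 10 probes, threshold 0.2). GC correction regressed each array on GC of the probe and of 50 kb around its exact match in GRCm38. Scripts were tested on simulated data. The number of arrays limits the precision. The genes named are the member genes, the 3 highest and 3 lowest of the locus, its caspases and metalloproteinases, the 3 largest differences of each pathway list and the 5 genes most like the locus. Arhgap42 and Cntn5 were named after their values were seen, for an unadjusted p under 0.05. The interval from Birc2 to Yap1, gene-body probes and the corrected leave-one-out values were added after seeing the data. Alternatives are given in the closing section.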

Additional observations from a re-analysis of the deposited data

Results flagged for a closer look

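Mouse 608 of the anti-PD1 group stood apart from the other 6 treated mice in 3 values. The mean of the locus was -0.19 in this mouse against 0.045 to 0.20 in the others, the rest of chromosome 9 was -0.29 against -0.037 to 0.029, and the third window of the locus was -0.16 against 0.051 to 0.15. These are averages of 3 lesions, 2 of them with the whole of chromosome 9 called as lost, and the array of lesion 1 was the dimmest of the series. The locus minus the rest of chromosome 9 in this mouse, 0.099, lay among the others. In the CD-HFD group, mouse 2115 had 0.41 for the mean of the probes inside Birc2, against -0.29 to -0.036 in the other 6 mice. Mice 1770, 2067 and 2085 had tumours on design 1 alone, where this mean holds Birc2 probe 1 in place of probe 2. Mice 2064, 2088 and 822, on the same probes as mouse 2115, had -0.25, -0.036 and -0.10. A value was flagged by its gap to the nearest other mouse as a share of the range of its group, 0.60 to 0.79 in these cases. With 24 groups examined, 1.2 such values are expected by chance and 4 were found. That expected number takes the values of a group as alike, while the Birc2 values mix probe sets, so nothing is concluded from it. 3 of the 4 are the same mouse and overlap in their probes.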

How the results depend on the processing

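No paired analysis was possible because no mouse gave tumours to both groups. The locus minus the rest of chromosome 9, over all mice, stayed above 0 in all 37 alternatives, from 0.021 to 0.25, the highest with the authors' loess-normalized ratios (exact sign-flip permutation test, p = 0.000122). Among the 37, the setting against the array's median took the locus alone, without subtracting the rest of the chromosome, at 0.11 (exact sign-flip permutation test, p = 0.0050). With the GC correction and 1 mouse left out, which was added after the data were seen, it ran from 0.021 to 0.032, and its p rose above 0.05 when any of mice 2094, 2097, 2116, 2064, 2088, 2115, 1109 and 822 was left out (exact permutation, 0.0510 to 0.0842). Without the correction, leaving out a mouse gave 0.14 to 0.15. The group difference passed in 0 of 24 alternatives (exact permutation p from 0.0664 to 0.952) and changed sign with the GC correction (-0.0050), with medians over probes (-0.0071), against the array's median (-0.0094), and with mice left out in turn (range -0.0054 to 0.027), without mouse 2067 or 1109.

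Gains of the locus fell from 2 to 0 with normexp background correction, without dim probes, with the GC correction and at a threshold of 0.3, and rose to 6 at a threshold of 0.1. Losses were 1 with normexp and 2 otherwise. A count of 0 between the groups became 1 for blocks on the probes common to both designs, a block of chromosome X, and for genes both with the loess-normalized ratios and without mouse 2116 (0 to 1 over the mice left out), in each case the transcript ENSMUST00000163438 on chromosome 17. On slide 1 alone limma called 210 of 414 blocks and 2 of 2223 windows, neither window in the locus. The other alternatives listed gave 0 calls between the groups for windows, blocks and genes. Yap1 ran from -0.13 to -0.026 and Birc3 from -0.22 to -0.030, with no call (limma). Lats2 ran from -0.32 to 0.042 with a mouse left out, above 0 without mouse 2064. The causes were not tested. Probe noise limits the member genes: a change of their 186 kb in a part of the cells can go undetected with 13 to 15 probes.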
